A study of Mus musculus with 13 samples.

Results

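The 10 genes described here encode chaperones and co-chaperones that work inside the endoplasmic reticulum (ER): Hspa5, Hsp90b1, Calr, Canx, Hyou1, Dnajb9, Dnajb11, Dnajc3, Sdf2l1 and Sil1. They were taken by symbol for the known work of their products, with results of these data already in view, and all 10 were found among the 22406 symbols of the deposited tables. Ribosome footprint profiling, which sequences the mRNA fragments that ribosomes protect, was done on mouse embryonic fibroblasts (MEFs) that were WT or PERK-/-, untreated (control) or treated with 1 µM thapsigargin (Tg) for 1, 2, 5 or 8 h. NIH3T3 cells, an established mouse fibroblast line, were untreated or had 0.2 µM Tg for 2 or 7 h. Cycloheximide, which freezes ribosomes in place, was left out at all steps, and the sources used here do not say how many embryos or clones stand behind each MEF genotype. There were 13 libraries for 13 conditions. No value below has a spread between replicates, and a test between conditions was not possible.

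The total of expected counts was 11949174, 3609292, 2525029, 5617552 and 11178364 in WT MEFs (control, 1, 2, 5 and 8 h). For PERK-/- MEFs it was 6735073, 10011722, 14799515, 8035736 and 7446112, and in NIH3T3 cells 11121006, 2569965 and 5756011 (control, 2 and 7 h). Levels are given in TPM, the authors' normalised abundance, which corrects for the length of the coding sequence, clipped at both ends, and is a share of a library. A change in the total amount of translation, which Tg is known to lower through PERK, is not seen in such shares, so levels and changes are relative in every comparison of the genotypes. A change is the log2 ratio of TPM, with values under 4 raised to 4, between a Tg library and the control of its own genotype or cell line. Where an interval follows a change, it is the exact conditional 95% interval of the ratio of expected counts, each divided by its library total. Such an interval holds the error of counting and nothing else. The 10 genes had between 66 and 162771 expected counts in a library. All 10 passed the filter of a mean TPM of at least 2 in both the MEF table (10432 genes) and the NIH3T3 table (10117 genes).

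Proteins that enter the secretory pathway fold in the ER with the help of 2 chaperone systems. BiP, the product of Hspa5, is the HSP70 of the ER: it binds exposed hydrophobic stretches in a cycle of ATP hydrolysis that J proteins (Dnajb9, Dnajb11, Dnajc3) set off and nucleotide exchange factors (Hyou1, Sil1) complete. Calreticulin (Calr) and calnexin (Canx) are lectins that hold glycoproteins with a monoglucosylated glycan. Grp94 (Hsp90b1) is the HSP90 of the ER, and Sdf2l1 binds the J protein of Dnajb11. Tg blocks the calcium pump of the ER, and the unfolded proteins that then build up are sensed by ATF6, IRE1 and PERK. ATF6 and XBP1, which IRE1 activates, are transcription factors for many ER chaperone genes. PERK phosphorylates eIF2α, which lowers translation in general and favours that of ATF4.

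Eif2ak3, which encodes PERK, was at 21.3 CPM (expected counts scaled to the library total) in untreated WT MEFs and at 10.99 CPM in untreated PERK-/- MEFs. At 1, 2, 5 and 8 h of Tg it was at 14.4, 19.0, 33.3 and 32.7 CPM in WT and at 8.99, 7.64, 13.2 and 19.1 CPM in PERK-/- MEFs. It was thus lower in the PERK-/- library of each time but not absent, with 74 to 142 expected counts. NIH3T3 cells, which carry no knockout, had 34.6, 25.7 and 49.7 CPM (control, 2 and 7 h). Which part of the gene the knockout removes is not given in the sources used here. In the controls the log2 ratio of PERK-/- to WT was −0.95 (−1.35 to −0.57) in counts per library total, but 0.89 in TPM, and TPM is not used for this gene.

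Markers fixed for fibroblasts were, as a sum, abundant in all 13 libraries, with a summed TPM of 9394 for 12 genes in the WT control, 9739 in the PERK-/- control and 7283 in the NIH3T3 control. The most abundant of them was Vim or Sparc in each library. Lum had 0 counts in 4 of the 5 WT libraries and in the NIH3T3 libraries, and Dcn had 0 in the NIH3T3 libraries. Pdgfra was at 0.27 to 2.79 TPM in WT MEFs, and Col3a1 at 0.64 to 1.67 TPM in NIH3T3 cells. Postn and Pdgfrb were at 4.92 and 5.36 TPM in the NIH3T3 control. The sum was lower with Tg, down to 7717 at 1 h in WT, 6049 at 2 h in PERK-/- and 4750 at 7 h in NIH3T3 cells, and its part in the values of the chaperone genes was not tested. Single markers went both ways. In these libraries Col1a1 went down, from 1400 to 870, from 2207 to 672 and from 743 to 269 TPM. Vim went up, from 2977 to 3202, from 2581 to 2677 and from 1549 to 1872 TPM. Sparc in PERK-/- MEFs was at 3658 TPM at 8 h against 2847 in the control. Of the 6 epithelial markers, which summed to between 9.42 and 44.1 TPM, Krt19 reached 36.8 TPM in PERK-/- MEFs and Esrp1 had 0 counts throughout. The 4 endothelial markers summed to at most 5.14 TPM, with Kdr the highest in MEFs and Cdh5 in NIH3T3 cells, where Kdr had 0 counts, and Tie1 had 0 counts in the MEFs. The 5 blood and macrophage markers in the tables summed to at most 4.80 TPM in MEFs, and Adgre1 had 0 counts, while Lyz2 gave 46.8 TPM in the NIH3T3 control. The 4 muscle markers summed to at most 11.7 TPM, with Myod1 and Myog at 0 counts.

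In untreated WT MEFs the most abundant of the 10 genes was Calr, at 3468 TPM and rank 15 among all genes. Hsp90b1 followed at 1731 TPM (rank 99), Hspa5 at 1357 (rank 136) and Canx at 1244 (rank 159). The co-chaperones were far lower, with 210 TPM for Dnajb11, 146 for Hyou1, 79.5 for Dnajc3, 23.9 for Sdf2l1, 20.3 for Dnajb9 and 20.2 for Sil1. The order of the last 3 rests on 178, 152 and 290 expected counts, and these genes were close to each other. Calr, Hsp90b1, Hspa5 and Canx thus had a far higher footprint density than the other 6 genes.

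All 10 genes were higher in untreated PERK-/- than in untreated WT MEFs, and each interval of the ratio lay above 0. Of all expressed genes 57.2% were higher by TPM, and 39.6% had an interval above 0. None was past 2-fold, a size that 6.04% of the expressed genes reached upward and 1.97% downward. The largest ratios were those of Sdf2l1 at 38.9 against 23.9 TPM (log2 ratio of counts 0.70, 0.38 to 1.01) and Dnajb9 at 30.4 against 20.3 TPM (0.58, 0.23 to 0.93). Hspa5 stood at 1646 against 1357 TPM (0.27, 0.25 to 0.30). The median ratio over the 10 genes was 0.27, against 0.08 over all expressed genes. Its size depends on the scaling, since the median of the 10 genes was 0.18 under TMM and 0.17 under DESeq2 scaling, and with either the interval of Sil1 then held 0. The median over all expressed genes was then −0.001 and −0.007, and 3016 and 2978 of the 10432 had an interval above 0.

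**Figure D1:**
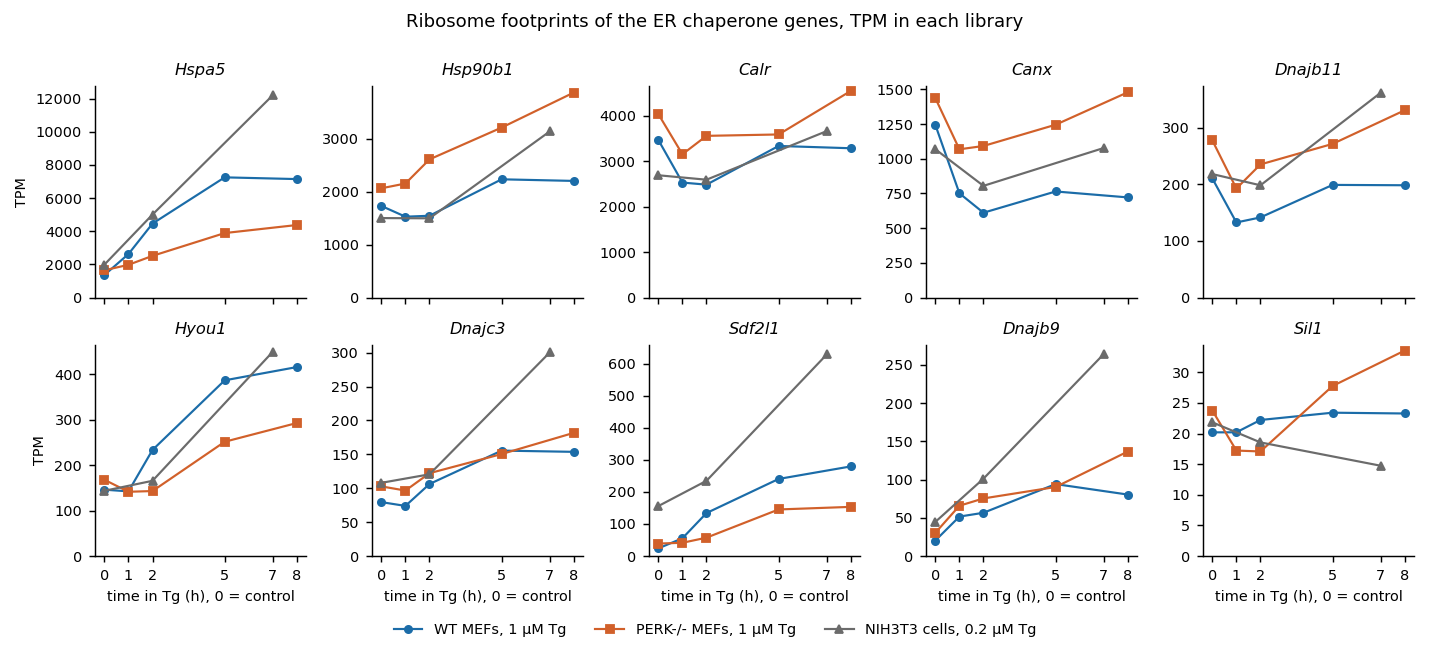
TPM of each of the 10 genes (y axis, from 0, a scale of its own per gene) against the time in Tg in hours (x axis, 0 is the control), with 1 point per library and lines that only join libraries of the same cells. Hspa5 goes from 1357 to 7149 TPM in WT and from 1646 to 4376 TPM in PERK-/- MEFs by 8 h, while Canx in WT MEFs goes from 1244 to 721 TPM.

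The promoters of these genes are shown because many of them share the ER stress response element (ERSE), the sequence through which ATF6 with NF-Y acts. RefSeq promoter windows of GRCm38.p6, 300 bases from 250 before the start site, were held for 8 of the 10 genes, all but Hyou1 and Sil1. Searched on both strands were ERSE (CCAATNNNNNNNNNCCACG), ERSE-II (ATTGGNCCACG), the core of the XBP1 element UPRE (TGACGTG) and an ATF4 type element (TGATGNAAN). ERSE begins with a CCAAT box, which 37.4% of all 32851 windows hold, and its second part, CCACG, is also that of ERSE-II. ERSE was present in 5 of the 8 windows (Hspa5, Hsp90b1, Calr, Canx and Dnajc3) and in 0.119% of all windows. The ERSE-II order was present in Dnajb11 and in 0.0365% of all windows, and the UPRE core in Hspa5 and in 2.01%. The ATF4 type element, present in 3.95% of all windows, was not found in the 8, and the windows of Dnajb9 and Sdf2l1 held none of the 4 motifs. A match is a description of the letters and not a binding site. Only exact matches within these 300 bases were sought, so the lack of a match does not show that an element is absent. The stretches below run 5′ to 3′ on the strand of the gene, with the ERSE or ERSE-II match in capitals and lower case bases around it.
Hspa5, chr2:34772005-34772063, plus strand: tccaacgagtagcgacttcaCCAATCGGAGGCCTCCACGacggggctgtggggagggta
Hsp90b1, chr10:86705513-86705676, minus strand: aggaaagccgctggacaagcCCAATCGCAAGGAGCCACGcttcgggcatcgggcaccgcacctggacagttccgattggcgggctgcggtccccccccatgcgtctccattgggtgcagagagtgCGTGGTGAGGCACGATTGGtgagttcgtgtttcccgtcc
Calr, chr8:84847055-84847113, minus strand: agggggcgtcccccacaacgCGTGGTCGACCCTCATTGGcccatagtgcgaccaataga
Canx, chr11:50325780-50325838, minus strand: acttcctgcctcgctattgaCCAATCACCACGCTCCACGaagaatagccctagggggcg
Dnajc3, chr14:118937807-118937865, plus strand: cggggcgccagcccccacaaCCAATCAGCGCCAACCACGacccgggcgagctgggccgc
Dnajb11, chr16:22857832-22857882, plus strand: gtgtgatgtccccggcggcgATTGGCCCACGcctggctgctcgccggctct
Hsp90b1 held 2 ERSE matches, in opposite directions, and that of Calr lay on the other strand. The 5 genes with an ERSE match had very different changes with Tg, from an increase of Hspa5 to a decrease of Canx, as the values below show.

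**Figure D2:**
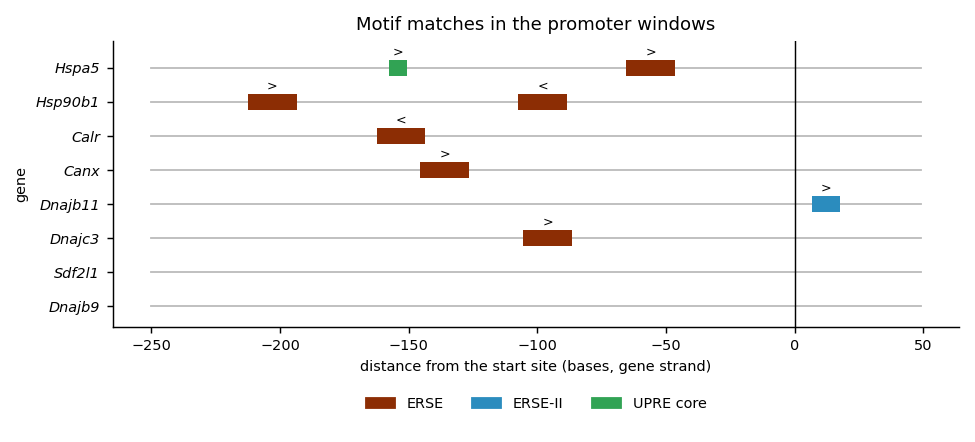
Position of motif matches in the 8 promoter windows, as the distance from the start site in bases on the strand of the gene (x axis), with 1 row per gene and arrowheads for the strand of the match. ERSE matches lie upstream of the start site in 5 genes, from −212 in Hsp90b1 to −47 in Hspa5, and the ERSE-II match of Dnajb11 lies at 7 to 17.

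Of the 10 genes, 2, 3, 4 and 4 were at least 2-fold up in WT MEFs (1, 2, 5 and 8 h), where 4.33%, 5.66%, 5.86% and 6.45% of all expressed genes were past the same fold. In PERK-/- MEFs 1, 1, 3 and 3 of the 10 genes were at least 2-fold up, against 0.719%, 0.623%, 3.26% and 3.28% of the expressed genes. These counts are small and rest on shared controls, and the count of 1 in PERK-/- MEFs at 1 h was 0 with a trend on GC content removed. The genes counted at 8 h were Hspa5, Dnajb9, Sdf2l1 and, in WT alone, Hyou1. Downward, Canx at 2 h in WT MEFs was the only change of the 10 genes past 2-fold, and this it was not when a trend on GC content was removed (log2 change −1.03, or −0.85 without the trend). Of the expressed genes, 2.29%, 4.01%, 3.55% and 3.87% were at least 2-fold down in WT at the 4 times, and 3.38%, 5.78%, 4.77% and 2.73% in PERK-/- MEFs. Within these bulk libraries a change in mRNA, in its translation and in the share of cells that express a gene cannot be told apart.

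The median log2 change of the 10 genes in WT MEFs was −0.07, 0.28, 0.67 and 0.65 over the 4 times, while that of all expressed genes was between 0 and 0.01. Its PERK-/- values were −0.17, 0.03, 0.57 and 0.81, against −0.06, −0.11, 0 and 0.04 for all expressed genes. The early PERK-/- medians depend on the scaling, with −0.06 at 1 h and 0.20 at 2 h under TMM factors. The medians hide a wide spread, since at 8 h the changes ran from −0.79 for Canx to 3.55 for Sdf2l1 in WT, and from 0.04 for Canx to 2.17 for Dnajb9 in PERK-/- MEFs. At 8 h, 7 genes were above and 3 below the control in WT MEFs, and all 10 were above it in PERK-/- MEFs by TPM. Of these, Canx turned to −0.04 under both TMM and DESeq2 scaling. The share of all expressed genes above the control is not given for 8 h. Their median was 0.01 in WT and 0.04 in PERK-/- MEFs. By TPM, Canx, the lowest of the 10 genes in both, lay at percentile 6.79 of all expressed genes in WT and 49.9 in PERK-/- MEFs.

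Hspa5 (chromosome 2, 34772090 to 34776529), the gene of BiP, stood at 1357, 2624, 4462, 7253 and 7149 TPM in WT MEFs. Its PERK-/- levels were 1646, 1975, 2515, 3890 and 4376 TPM. The level thus climbed in both genotypes, and from 1 h on it was lower in PERK-/- MEFs, though it had been higher in the control. Its rank among all genes by TPM went from 136 to 3 in WT and from 98 to 9 in PERK-/- MEFs. The log2 change of counts at 1 h was 0.97 (0.94 to 0.99) in WT but 0.29 (0.27 to 0.32) in PERK-/- MEFs, and at 8 h 2.40 (2.38 to 2.42) and 1.40 (1.38 to 1.42).

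Sdf2l1 (chromosome 16, 17130138 to 17132383) had the largest change of the 10 genes in WT MEFs at 2, 5 and 8 h. Its level was 23.9, 55.4, 134, 240.3 and 279 TPM in WT and 38.9, 41.3, 57.3, 145 and 153 TPM in PERK-/- MEFs. At 8 h this was 11.7-fold in WT, rank 12 among the 10432 expressed genes, and 3.94-fold in PERK-/- MEFs, rank 17. Its log2 change of counts at 1 h was 1.23 (0.89 to 1.57) in WT, while that in PERK-/- MEFs was 0.12 (−0.17 to 0.41), an interval that holds 0.

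Dnajb9 (chromosome 12, 44205897 to 44210068) encodes ERdj4, a J protein that also holds back IRE1. It was at 20.3, 51.6, 56.6, 94.1 and 80.4 TPM in WT and at 30.4, 65.8, 75.3, 90.3 and 137 TPM in PERK-/- MEFs. In contrast to Hspa5 and Sdf2l1, it was already past 2-fold at 1 h in both genotypes, at 2.55-fold in WT, with 2.17-fold in PERK-/- MEFs. The latter fell short of 2-fold with the trend on GC content removed (log2 change 1.12, or 0.94 without the trend). Among the expressed genes of PERK-/- MEFs it ranked 54, 18, 57 and 6 by its change at the 4 times.

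Hyou1 (chromosome 9, 44379490 to 44392369) encodes Grp170, a large HSP70-like protein that exchanges the nucleotide of BiP. Its level was 146, 142, 234, 387 and 416 TPM in WT and 168, 142, 143, 252 and 293 TPM in PERK-/- MEFs. It was thus near the control at 1 h in WT and above it from 2 h, and in PERK-/- MEFs it was below the control at 1 and 2 h and above it from 5 h. The log2 change of counts at 2 h was 0.68 (0.61 to 0.76) in WT but −0.15 (−0.21 to −0.10) in PERK-/- MEFs.

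Dnajc3 (chromosome 14, 118937932 to 118981702) encodes p58IPK, a J protein with tetratricopeptide repeats. It was at 79.5, 73.9, 106, 156 and 154 TPM in WT and at 103, 96.6, 122, 150.4 and 182 TPM in PERK-/- MEFs. The first hour brought no change beyond counting error in either genotype, and from 2 h on the level was higher than the control in both, though in PERK-/- MEFs at 2 h the log2 change of 0.25 was 0.08 with the trend on GC content removed. The change stayed under 2-fold at every time in MEFs, but without that trend it was past 2-fold in WT at 5 h (log2 change 1.14) and 8 h (1.15).

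Dnajb11 (chromosome 16, 22857845 to 22879634) encodes ERdj3, a soluble J protein that binds clients itself. Its level was 210.4, 133, 142, 199 and 198 TPM in WT and 278, 193, 235, 272 and 331 TPM in PERK-/- MEFs. It was lowest at 1 h in both genotypes, with a log2 change of counts of −0.65 (−0.79 to −0.52) in WT, with −0.50 (−0.59 to −0.41) in PERK-/- MEFs. At 8 h it was just under the control in WT (−0.08, −0.16 to −0.003) and above it in PERK-/- MEFs (0.24, 0.16 to 0.33).

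Hsp90b1 (chromosome 10, 86690841 to 86705444) stood at 1731, 1528, 1545, 2234 and 2204 TPM in WT and at 2065, 2155, 2611, 3213 and 3875 TPM in PERK-/- MEFs. In WT MEFs it was below the control at 1 and 2 h and above it later, while in PERK-/- MEFs it was higher at each later time. By 8 h its log2 change of counts was 0.35 (0.33 to 0.37) in WT but 0.90 (0.88 to 0.92) in PERK-/- MEFs, the reverse of the order of Hspa5. At 1 h the change in PERK-/- MEFs was 0.06 in TPM and −0.04 with the trend on GC content removed.

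Calr (chromosome 8, 84842088 to 84846931) was at 3468, 2531, 2485, 3337 and 3287 TPM in WT and at 4038, 3155, 3560, 3590 and 4549 TPM in PERK-/- MEFs. WT MEFs had their lower values at 1 and 2 h and PERK-/- MEFs their lowest at 1 h. In PERK-/- MEFs Calr was also below its control at 2 and 5 h (log2 changes of TPM −0.18 and −0.17). At 2 h this was −0.02 under TMM factors. Calr ended below its control in WT and above it in PERK-/- MEFs. Canx (chromosome 11, 50293957 to 50325673), which unlike Calr is anchored in the ER membrane, stood at 1244, 751, 611, 764 and 721 TPM in WT MEFs. Its PERK-/- levels were 1437, 1068, 1092, 1245 and 1479 TPM. In WT MEFs the loss was thus present at 1 h and still there at 8 h, whereas in PERK-/- MEFs the value had returned to that of the control. At 8 h the log2 change of counts of Canx was −0.78 (−0.81 to −0.76) in WT but 0.03 (0.004 to 0.06) in PERK-/- MEFs.

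Sil1, the other nucleotide exchange factor, had the lowest TPM of the 10 genes in each of the 13 libraries. It was at 20.2, 20.2, 22.2, 23.4 and 23.3 TPM in WT and at 23.8, 17.2, 17.1, 27.8 and 33.6 TPM in PERK-/- MEFs. Its WT level hardly moved, and the PERK-/- level was lower at 1 and 2 h and higher at 5 and 8 h. TPM and counts parted for this gene more than for the other 9: its WT change at 8 h was 0.20 in TPM and 0.44 (0.22 to 0.67) in counts, and −0.06 in TPM with the trend on GC content removed. The direction of its small changes in WT MEFs is therefore not settled by these libraries.

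**Figure D3:**
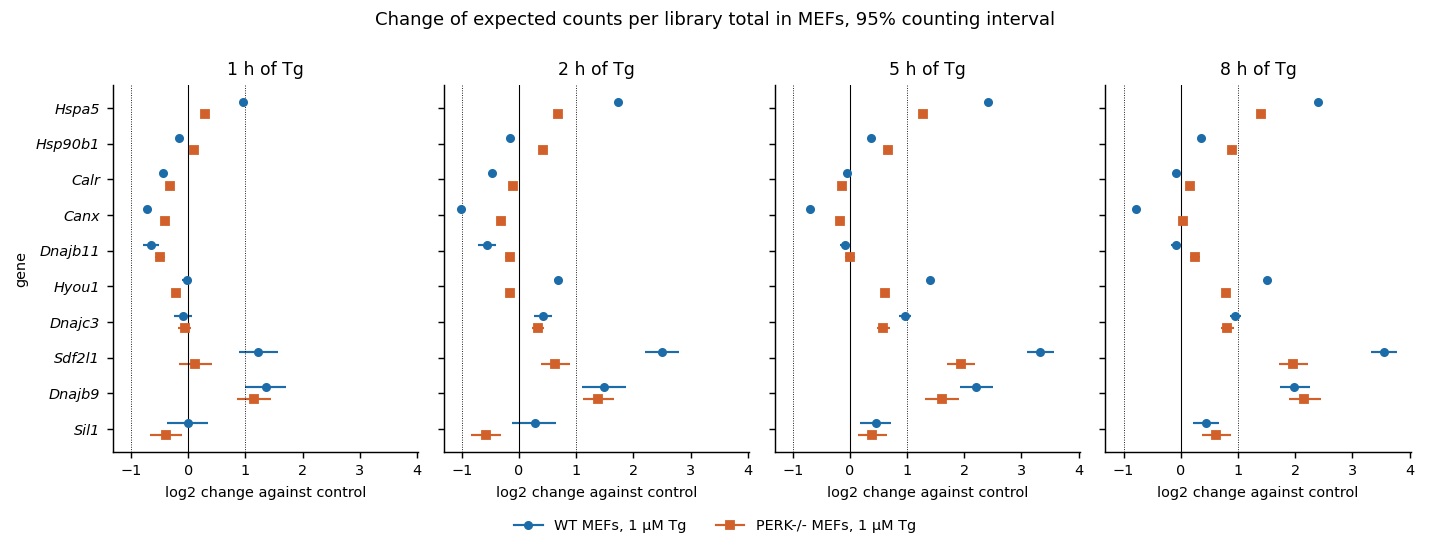
Log2 change of expected counts per library total against the control (x axis) for each of the 10 genes (y axis) at 1, 2, 5 and 8 h of Tg, in WT (circles) and PERK-/- MEFs (squares), 1 library each. Bars are exact 95% counting intervals, shorter than the symbol for abundant genes, and dotted lines mark 2-fold. At 8 h Hspa5 lies at 2.40 in WT and 1.40 in PERK-/- MEFs, and Canx at −0.78 and 0.03.

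The genotypes were set against each other at equal dose and time by the difference of the log2 changes of counts, WT less PERK-/-, with a 95% interval from the 4 counts on the log scale, which covers counting error only. For Hspa5 the difference was 0.67 (0.64 to 0.71) at 1 h, 1.04 (1.00 to 1.07) at 2 h, 1.14 (1.11 to 1.17) at 5 h and 1.00 (0.97 to 1.02) at 8 h. For Sdf2l1 it was 1.11 (0.68 to 1.54), 1.86 (1.48 to 2.24), 1.39 (1.06 to 1.73) and 1.58 (1.25 to 1.91). These 2 genes thus had the larger increase in WT MEFs at all 4 times. Among all expressed genes the differences of Hspa5 lay at percentiles 75, 81.7, 86.6 and 88.6. Those of Sdf2l1 lay at 86.7, 94.4, 90.2 and 95.3. For Hyou1 the difference was 0.84 (0.74 to 0.93) at 2 h, 0.78 (0.71 to 0.86) at 5 h and 0.72 (0.64 to 0.79) at 8 h. At 1 h Hyou1 had not increased in either genotype, and the difference of 0.19 (0.09 to 0.29), near the median of 0.14 over all expressed genes, was 0.01 with the trend on GC content removed.

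Canx and Hsp90b1 had the opposite sign at each time. The difference for Canx was −0.32 (−0.37 to −0.26) at 1 h, −0.70 (−0.76 to −0.64) at 2 h, −0.53 (−0.58 to −0.49) at 5 h and −0.82 (−0.86 to −0.78) at 8 h. For Hsp90b1 it was −0.26 (−0.29 to −0.23), −0.57 (−0.61 to −0.54), −0.31 (−0.33 to −0.28) and −0.55 (−0.57 to −0.52). Among all expressed genes these differences lay at percentiles 25.4, 15.0, 19.3 and 10.9 for Canx and 28.5, 18.9, 28.9 and 19.1 for Hsp90b1. The sign of each difference was the same under all 7 settings tried, but the size was not. With the trend on GC content removed, the difference at the 4 times was −0.04, −0.26, −0.26 and −0.56 for Canx and −0.03, −0.21, −0.08 and −0.34 for Hsp90b1, so at 1 h little of it was left. Calr was also below 0 at 1, 2 and 8 h, with −0.24 (−0.27 to −0.21) at 8 h, but at 0.08 (0.05 to 0.11) at 5 h, a sign that TMM factors turned to −0.01.

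The J proteins differed less between the genotypes than Hspa5. For Dnajb9 the interval held 0 at 1 h (0.22, −0.23 to 0.67), at 2 h and at 8 h (−0.17, −0.55 to 0.20), and lay above 0 only at 5 h (0.61, 0.21 to 1.00). For Dnajc3 it also held 0 at 1 and 2 h and, narrowly, at 8 h (0.14, −0.003 to 0.28), and lay above 0 at 5 h (0.38, 0.23 to 0.53). Dnajb11 was below 0 at all 4 times, with −0.40 (−0.57 to −0.23) at 2 h and −0.33 (−0.44 to −0.21) at 8 h, and intervals that held 0 at 1 and 5 h. For Sil1, which is not a J protein, the interval lay above 0 at 2 h (0.86, 0.41 to 1.30) and held 0 at 1, 5 and 8 h. With the trend on GC content removed, the 2 h changes of Sil1 were −0.05 in WT and −0.25 in PERK-/- MEFs. At 8 h 4 of the 10 genes had the larger log2 change in WT and 6 in PERK-/- MEFs, with intervals away from 0 for 3 and 4 of them, against 30.6% and 27.4% of all expressed genes. Over all expressed genes the median of this difference was 0.14, 0.18, 0.09 and 0.03 at the 4 times. In level, 4, 4, 5 and 3 of the 10 genes were higher in WT than in PERK-/- MEFs by TPM at the 4 times. Those at 8 h were Hspa5, Hyou1 and Sdf2l1, and the share of all expressed genes is not given.

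The share of all expected counts that fell on the 10 genes was 1.46% in the WT control and 1.47%, 1.85%, 2.78% and 2.76% at 1, 2, 5 and 8 h. The PERK-/- share was 1.72% in the control, then 1.65%, 2.01%, 2.48% and 2.86%. The exact binomial interval at 8 h was 2.75% to 2.77% in WT, with 2.85% to 2.87% in PERK-/- MEFs. By 8 h the chaperones as a whole thus took a similar share of the footprints in both genotypes, although their make-up differed. Of the counts on the 10 genes, Hspa5 took 18.9% in the WT control and 52.8% at 8 h (52.6% to 53.0%). The same part in PERK-/- MEFs was 19.4% in the control and 30.9% at 8 h (30.7% to 31.1%). Without Hspa5, the other 9 genes held 1.18% of all counts in the WT control, 0.928% at 1 h and 1.30% at 8 h, and 1.39%, 1.25% and 1.98% in PERK-/- MEFs.

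**Figure D4:**
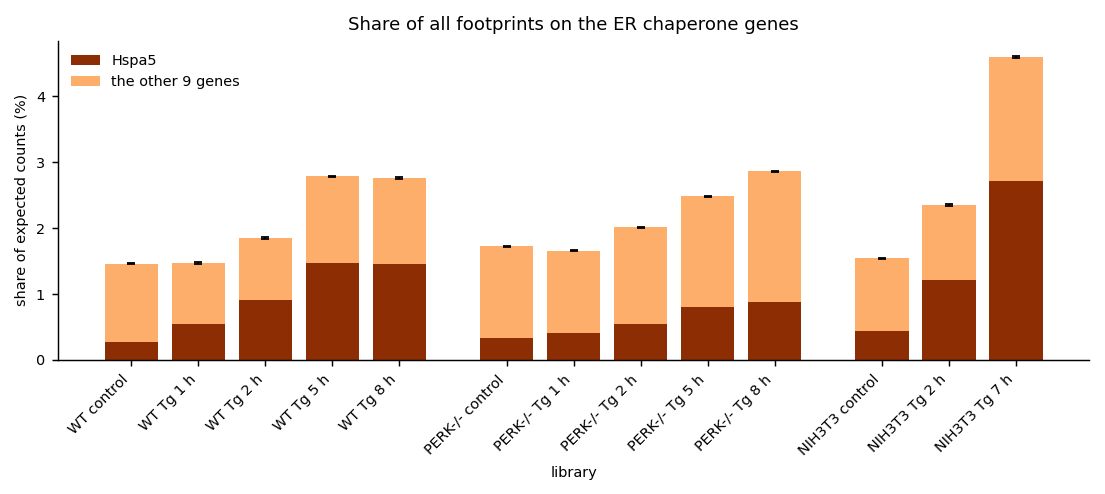
Share of all expected counts on the 10 genes in percent (bar height) in each of the 13 libraries, split into Hspa5 (dark, lower part) and the other 9 genes (light, upper part), with exact 95% binomial intervals of the sum. The sum is 2.76% in WT and 2.86% in PERK-/- MEFs at 8 h, and 4.60% in NIH3T3 cells at 7 h.

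A ratio of TPM values within a library does not depend on the scaling between libraries. Grp94 and BiP were at comparable density in untreated MEFs, with 1.28 TPM of Hsp90b1 per TPM of Hspa5 in WT and 1.25 in PERK-/- MEFs. At 1, 2, 5 and 8 h this ratio was 0.582, 0.346, 0.308 and 0.308 in WT, and 1.09, 1.04, 0.826 and 0.885 in PERK-/- MEFs. The lectins, Calr and Canx together, went from 3.47 per TPM of Hspa5 to 1.25 at 1 h and 0.561 at 8 h in WT, and from 3.33 to 2.14 and 1.38 in PERK-/- MEFs. The balance of Grp94 and of the summed lectins to BiP thus turned over in WT MEFs within 2 h. In PERK-/- MEFs that of Grp94 had turned over by 5 h, while the lectins as a sum still had the higher density at 8 h. Canx alone was already below Hspa5 in both controls (0.917 in WT and 0.873 in PERK-/- MEFs). Calr alone per TPM of Hspa5 in PERK-/- MEFs was 0.923 at 5 h and 1.04 at 8 h.

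The co-chaperones of BiP were not alike in their ratio to it. The 3 J proteins, most of whose TPM in the controls was that of Dnajb11, summed to 0.229 TPM per TPM of Hspa5 in the WT control and to 0.0984, 0.0682, 0.0619 and 0.0605 at 1, 2, 5 and 8 h. The PERK-/- sum was 0.2497 in the control and 0.180, 0.172, 0.132 and 0.148 after. The nucleotide exchange factors Hyou1 and Sil1 summed to 0.123 in the WT control and 0.0615 at 8 h, and to 0.117 and 0.0746 in PERK-/- MEFs. Both sums were thus lower relative to BiP at 8 h than in the control, but single genes went the other way. Dnajb9 per TPM of Hspa5 was 0.0185 in the PERK-/- control and 0.0333, 0.0300, 0.0232 and 0.0312 after, and in WT MEFs it went from 0.0149 to 0.0197 at 1 h and was 0.0112 by 8 h. Sdf2l1 went from 0.0176 to 0.0391 in WT and from 0.0236 to 0.0350 in PERK-/- MEFs by 8 h. Footprint density speaks of synthesis and not of the amount of protein.

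**Figure D5:**
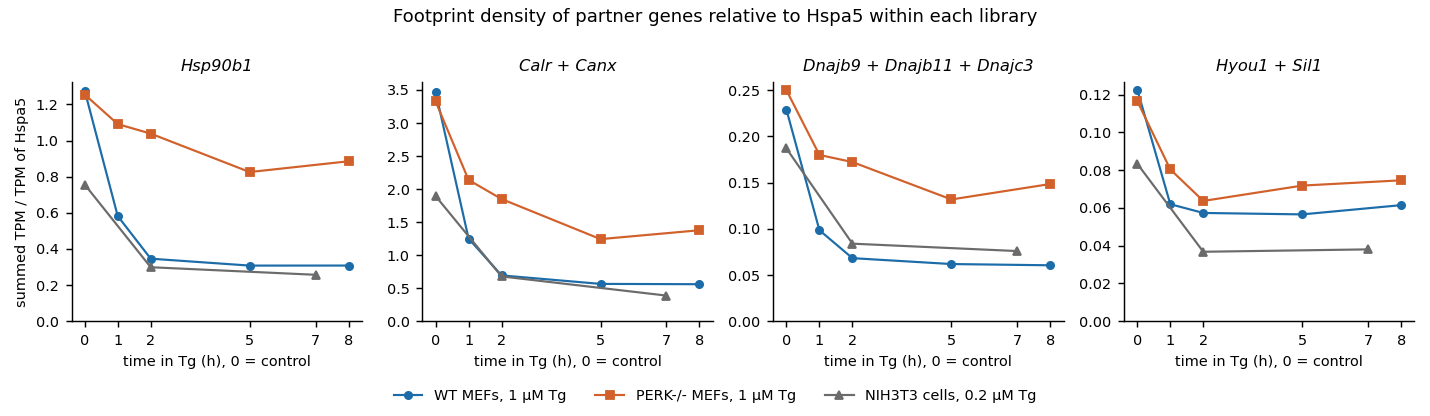
Summed TPM of Hsp90b1, of Calr and Canx, of the 3 J proteins and of the nucleotide exchange factors Hyou1 and Sil1, divided by the TPM of Hspa5 in the same library (y axis, from 0), against the time in Tg in hours (x axis, 0 is the control), 1 point per library. Hsp90b1 goes from 1.28 to 0.308 in WT and from 1.25 to 0.885 in PERK-/- MEFs by 8 h.

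The part of the 8 h change that was present earlier was taken for genes past 2-fold at 8 h. In WT MEFs 39.7% of the log2 change of Hspa5 was present at 1 h and 71.6% at 2 h. For Sdf2l1 these were 34.2% and 70.1%, for Dnajb9 67.8% and 74.5%, and for Hyou1 −2.48% and 44.8%. Dnajb9 thus led and Hyou1 followed, and at 5 h all 4 were between 93.0% and 111%. Dnajb9 again led at first in PERK-/- MEFs, with 51.4% at 1 h and 60.4% at 2 h. There Hspa5 had 18.6% and 43.4%, and Sdf2l1 4.44% and 28.3%, of a smaller change at 8 h. By 5 h the order had turned, with 72.4% for Dnajb9, 88.0% for Hspa5 and 96.1% for Sdf2l1. Between 5 and 8 h the log2 steps in WT MEFs ran from −0.23 for Dnajb9 to 0.22 for Sdf2l1. In PERK-/- MEFs they ran from 0.08 for Sdf2l1 to 0.60 for Dnajb9, and all 10 were above 0 by TPM, but 9 with TMM or DESeq2 factors, under which Sdf2l1 was below 0. Over the genes with at least 100 counts in both libraries the SD of this step was 0.14 in WT and 0.40 in PERK-/- MEFs, and in the latter the median was 0.07 with 57.7% of the genes above 0. Against the scatter of their own genotype, the WT steps of Dnajb9 and Sdf2l1 were thus larger in size than all 10 PERK-/- steps by TPM. The other WT steps lay between −0.08 (Canx) and 0.11 (Hyou1), within the SD.

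In NIH3T3 cells the dose and the late time differ from those of the MEFs, and the table was normalised on its own, so its values are given side by side and with no comparison. Hspa5 stood at 1985, 5008 and 12211 TPM (control, 2 and 7 h), and at 7 h it was the most abundant gene of the library. At 2 h 2 of the 10 genes were at least 2-fold up, Hspa5 and Dnajb9, against 5.76% of the expressed genes. At 7 h 6 were, against 7.01%, and these were Hspa5, Dnajb9, Sdf2l1, Hyou1, Dnajc3 and Hsp90b1. None of the 10 was 2-fold down, a change seen in 3.76% of the expressed genes at 2 h and 8.06% at 7 h. The median log2 change of the 10 genes was 0.08 at 2 h and 1.27 at 7 h, against −0.13 and 0 over all expressed genes.

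Among the co-chaperones in NIH3T3 cells, Dnajb9 was at 44.6, 101 and 264 TPM (control, 2 and 7 h), Sdf2l1 at 156, 234 and 628, and Hyou1 at 144, 166 and 450.1 TPM. Dnajc3 was at 108, 121 and 300.3 TPM and Dnajb11 at 218, 198 and 362 TPM. All 5 had their highest level at 7 h, most of it gained after 2 h. Hsp90b1 stood at 1502, 1497 and 3140 TPM, Calr at 2692, 2594 and 3664, and Canx at 1069, 805 and 1077 TPM. At 2 h the signs of Hsp90b1, Calr and Dnajb11 depend on the scaling, since TPM gave −0.004, −0.05 and −0.14 and DESeq2 size factors 0.18, 0.13 and 0.04. Canx was below its control at 2 h under each scaling and back at it by 7 h. Sil1, with 304, 66 and 131 counts, was at 21.8, 18.6 and 14.7 TPM, and its log2 change of counts at 7 h was −0.26 (−0.57 to 0.04). The 10 genes took 1.54%, 2.35% and 4.60% of all counts, and Hspa5 alone 0.440%, 1.21% and 2.71%.

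Other genes of ER folding are given from lists made by function, beside the 6.45% of all expressed genes that were at least 2-fold up and the 3.87% that were down in WT MEFs at 8 h. Of 13 expressed genes of other lumenal HSP70 partners and client chaperones, 2 were at least 2-fold up and 2 down, with a median of −0.12. Creld2 (94.2 to 289 TPM) and Manf (318 to 931 TPM) had the largest log2 changes, 1.62 and 1.55, and Dnajc10, a J protein with thioredoxin domains, the lowest, −1.23 (117 to 50.1 TPM). In PERK-/- MEFs at 8 h the median of this list was 0.37, and Dnajc10 was at 0.44. Of 8 genes of the lectin cycle, 1 was at least 2-fold down and none up in WT MEFs at 8 h. Their changes ran from −0.02 for Mlec and −0.06 for Lman1 to −1.19 for Uggt2 (median −0.12). In PERK-/- MEFs at 8 h their median was −0.17, with 2 of the 8 at least 2-fold down, against 2.73% of all expressed genes.

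Of 16 ER foldases, 3 were at least 2-fold up in WT MEFs at 8 h (6.45% of all expressed genes) and 1 in PERK-/- MEFs (3.28%), the latter near the share of all genes, with medians of 0.23 and 0.51. Ero1lb (1.89) and Fkbp11 (1.42) were highest and Fkbp7 (−0.61) lowest in WT. The 3 KDEL receptors, which bring chaperones that leave the ER back to it, were at 0.52 (Kdelr3), −0.04 (Kdelr1) and −0.20 (Kdelr2) in WT MEFs at 8 h, and at 1.14, 0.94 and 1.15 in PERK-/- MEFs. Of 10 sensors and factors of the stress response, 3 were at least 2-fold up in WT at 8 h and 2 in PERK-/- MEFs, beside the same shares of all genes, with medians of 0.77 and 0.53. Ddit3 (5.39) and Atf4 (4.06) were highest and Mbtps2 (−0.45) lowest in WT. Of 20 chaperones of the cytosol and mitochondria, none was 2-fold up in MEFs at 8 h, near the share of all expressed genes given above (6.45% in WT and 3.28% in PERK-/- MEFs). In WT 3 of the 20 were at least 2-fold down at 8 h, against 3.87% of all expressed genes, and none was in PERK-/- MEFs. Their median at 8 h was −0.36 in WT and −0.07 in PERK-/- MEFs. Hspbp1 (0.82) and Bag3 (0.63) were highest and Dnajb6 (−1.19) lowest in WT.

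The genes most like Hspa5 were sought by the Euclidean distance between log2 TPM profiles over the 13 libraries, each centred on its own mean, among 6725 genes with at least 100 counts in each control. These distances, unlike the rest, take MEF and NIH3T3 libraries together although their tables were normalised apart. The nearest was Syvn1, at a distance of 1.02. Hmox1 (1.22), Manf (1.37), Ndrg1 (1.5) and Sqstm1 (1.51) came next, while the nearest of the other 9 chaperone genes, Hyou1, was at 1.67 and Canx at 4.07. Nearest to the median profile of the 10 genes were Pdia6 (0.467), Uso1 (0.515), Pdia4 (0.558), Gfpt1 (0.613) and Ddx50 (0.631). Of the 10 genes themselves, Dnajc3 was closest to that median profile (0.593) and Sdf2l1 farthest from it (3.85). Each of the 10 genes helped to make that profile, so these distances are not independent of it. The distance also follows the size of the changes. Sdf2l1 was at 2.13 from Hspa5 but had a Pearson correlation with it of 0.921, against 0.883 for Hyou1. Pdia6 went from 748 to 1234 TPM in WT and from 840 to 1641 TPM in PERK-/- MEFs by 8 h.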

How the data were processed

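Footprints of 13 libraries were quantified by the authors, who used STAR, Bowtie2 and RSEM with mm10 per the labels. Expected counts, whole numbers in the tables, and TPM values were deposited by the authors, in a MEF and an NIH3T3 table. Doses are from the study's methods. TPM under 4 was raised to 4, genes whose mean TPM per table was 2 or more were kept, and each Tg library was divided by its control, all with no test. Intervals have 95% confidence. The least deep library, WT at 2 h, had a limit of 3 counts equal to 1.19 CPM. Alternatives were counts per library total, TMM and DESeq2 size factors (edgeR 4.0.16, DESeq2 1.42.0, R 4.3.3), a floor of 1 TPM, log2(TPM + 1), other thresholds, and, added after seeing the data, removal of a lowess trend (fraction 0.3) on the GC content of GENCODE transcripts, known for 96.1% of the genes expressed in MEFs. That GC content is of the longest whole transcript, while the footprints were mapped to coding sequences only. The members and lists were chosen with earlier results of these data known. Named genes were all 10 members, Eif2ak3, in each other list the 2 with the largest and the 1 with the smallest change at 8 h in WT MEFs, and the 5 nearest profiles. Proteins were not analysed here. The scripts used Python 3.11.15 with pandas 2.3.3, numpy 2.4.6, statsmodels 0.14.6, scipy 1.17.1 and matplotlib 3.10.9.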

Additional observations from a re-analysis of the deposited data

Results flagged for a closer look

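Of 40 pairs of changes, 10 genes at 4 times, 6 had opposite directions in WT and PERK-/- MEFs with both counting intervals away from 0. This is 15.0% of the pairs, beside 16.1% of the pairs of all expressed genes and 20.5% of those with at least 100 counts in each library. Under TMM and DESeq2 scaling 5 and 4 of the 40 pairs meet the rule. The differences between cultures behind them were not tested, since each value is 1 library. Hsp90b1 at 1 h was below its control in WT (log2 change of counts −0.17) and above it in PERK-/- MEFs (0.09), a difference of −0.26, and at 2 h the changes were −0.16 and 0.42, a difference of −0.57. Hyou1 at 2 h was above its control in WT (0.68) and below it in PERK-/- MEFs (−0.15), a difference of 0.84. At 8 h, 3 genes were below their control in WT and above it in PERK-/- MEFs. These were Calr (−0.08 and 0.16, a difference of −0.24), Canx (−0.78 and 0.03, a difference of −0.82) and Dnajb11 (−0.08 and 0.24, a difference of −0.33). The opposite direction was lost for Canx at 8 h under TMM and DESeq2 scaling (−0.04 in PERK-/- MEFs). It was also lost for Hsp90b1 at 1 h with a trend on GC content removed (−0.04 in PERK-/- MEFs). For Hyou1 at 2 h under DESeq2 scaling the signs stayed opposite, but the PERK-/- interval then held 0 (−0.05, −0.11 to 0.01).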

How the results depend on the processing

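With 1 library per condition the results have no replicate check, and depth limits only the weak genes: the counting interval of Dnajb9 at 1 h in WT MEFs spans 1.00 to 1.72, that of Hspa5 0.94 to 0.99. No paired analysis was possible because each condition has 1 library and no result comes from a test. Of the 30 changes of single genes past 2-fold, none changed its sign in 180 recomputed values, and 2 fell short of 2-fold, both with the GC trend removed. Of all 100 changes, 25 of 600 recomputed values had another sign, all of them of changes under 2-fold. Of the 40 genotype differences, 13 of 240 recomputed values had another sign. The medians of the 10 genes moved with the setting, from −0.17 to −0.06 in PERK-/- MEFs at 1 h (TMM factors), from 0.03 to 0.22 at 2 h and from 0.08 to 0.26 in NIH3T3 cells at 2 h (both DESeq2 size factors), and from 0.67 to 0.84 and 0.65 to 0.84 in WT at 5 and 8 h (GC trend removed). The counts of genes past the fold moved with the fold itself. With 3-fold they were 0 in WT at 1 h, 0, 0 and 1 in PERK-/- MEFs at 1, 2 and 5 h, and 0 in NIH3T3 cells at 2 h. With 1.5-fold they were 2 and 6 in PERK-/- MEFs at 2 and 8 h. Shares of all expressed genes are not given for these folds, nor for 2-fold with the GC trend removed. With the GC trend removed (chosen with the data already seen), the count in PERK-/- MEFs at 1 h was 0, while in WT MEFs it was 3, 3, 5 and 5 over the 4 times, Hspa5 being added at 1 h (1.03) and Dnajc3 at 5 and 8 h. The cause was not tested. DESeq2 size factors moved the median of all expressed genes by 0.11 at 2 h in PERK-/- MEFs and 0.13 at 2 h in NIH3T3 cells, where TMM factors moved it by 0.11. Counts per library total moved it by −0.10 at 7 h in NIH3T3 cells.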

Other observations

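TPM and counts gave close values for 9 of the 10 genes. After the median offset of each library was removed, the log2 change in TPM less that in counts ran from −0.30 to 0.18, both of these for Sil1, while that of Eif2ak3 ran from −0.50 to 1.07. The GC content of the longest transcript of the 10 genes ran from 40.6% for Dnajb9 to 56.7% for Sdf2l1, with a median of 47.8%, against 49.9% for the genes expressed in MEFs.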
